A study of Mus musculus with 18 samples.

Results

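The synaptotagmin genes described here were 10 listed members of the family, Syt1, Syt2, Syt3, Syt4, Syt5, Syt6, Syt7, Syt9, Syt10 and Syt12, which were matched by symbol to the identifiers of a gene count table with 53468 genes. All 10 passed the filter on low counts, as did 20363 genes in all. The table held 18 libraries of poly(A) RNA from the forebrain, midbrain and hindbrain of 6 mice at postnatal day 25 (P25), 3 of them Fmr1CRE knock-in mutants and 3 wild-type mice, with all 6 from the same litter. The Fmr1CRE mice carry, in a cis-regulatory element (CRE) of Fmr1, the mouse form of a single base change found in a human family with X-linked intellectual disability, placed in the genome by CRISPR/Cas9 on a C57BL/6 background, and several independent lines were made without the line of each mouse being named. Wild-type mice carry the unaltered element. The libraries were made to compare gene expression, that of Fmr1 included, between the genotypes in each region. Each region was a dissected block of tissue from 1 animal, so that fewer cells of a type and less RNA per cell cannot be told apart.

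Synaptotagmins are proteins of secretory vesicles and membranes with a transmembrane segment and paired C2 domains, which in many members bind calcium and then the SNARE proteins and phospholipids of the target membrane. Syt1 and Syt2 are fast calcium sensors that trigger synchronous transmitter release. Syt7 is a sensor of higher calcium affinity that acts in asynchronous release and facilitation. Syt1 is the usual fast sensor of forebrain neurons, while Syt2 is known from the brainstem, the spinal cord and the neuromuscular junction.

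Syt1, Syt2 and Syt9 differ in the sequence before their start. The stretches are shown because the results turn on the contrast between Syt1 and Syt2. The 3 stretches are the 250 bases before the RefSeq start of each gene in the build GRCm38.p6, read 5′ to 3′ on the strand of the gene. Capitals mark every match, on either strand, to 5 motifs, which were TATAAA, known as the TATA box, then CCAAT, which reads ATTGG on the other strand, then GGGCGG, which reads CCGCCC on the other strand, then CACGTG, the E-box, and TGACGTCA, the cyclic AMP response element.
Syt1, chr10:109010976-109011225, minus strand: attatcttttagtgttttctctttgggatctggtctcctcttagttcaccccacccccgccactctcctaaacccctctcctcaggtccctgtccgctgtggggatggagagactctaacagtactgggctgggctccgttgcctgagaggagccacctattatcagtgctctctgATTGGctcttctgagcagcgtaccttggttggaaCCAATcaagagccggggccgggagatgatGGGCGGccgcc
Syt2, chr1:134709050-134709299, plus strand: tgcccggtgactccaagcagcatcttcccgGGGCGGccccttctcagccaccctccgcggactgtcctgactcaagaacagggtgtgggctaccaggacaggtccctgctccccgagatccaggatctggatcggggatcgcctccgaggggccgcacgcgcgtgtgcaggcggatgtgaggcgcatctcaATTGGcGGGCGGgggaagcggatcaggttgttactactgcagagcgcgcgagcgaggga
Syt9, chr7:107370540-107370789, plus strand: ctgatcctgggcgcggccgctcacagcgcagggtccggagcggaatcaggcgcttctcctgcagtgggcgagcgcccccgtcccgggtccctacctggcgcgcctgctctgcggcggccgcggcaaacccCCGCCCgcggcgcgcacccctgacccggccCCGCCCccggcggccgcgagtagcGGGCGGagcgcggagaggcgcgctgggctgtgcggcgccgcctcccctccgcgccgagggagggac

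Each of the 3 held 3 matches. The Syt1 stretch had 2 CCAAT matches, 1 on each strand, and 1 GGGCGG, the Syt2 stretch had 1 CCAAT and 2 GGGCGG, and the Syt9 stretch had 3 GGGCGG matches, some of them on the other strand. Over all genes, CCAAT was found in 33.9% and GGGCGG in 32.7% of the 32851 RefSeq promoters of the same length, so these matches are common. TATAAA (12.4% of promoters), CACGTG (6.02%) and TGACGTCA (1.55%) had no match in the 3 stretches, which says only that these letters are not in the windows. The windows held 8 CpG dinucleotides for Syt1, 22 for Syt2 and 40 for Syt9, against a median of 6 over all promoters, and 85.2% of promoters had fewer than Syt2 and 98.7% fewer than Syt9. Over all libraries, 98.1% of the reads on Syt2 were assigned to the transcript Syt2-201, which begins at base 134709300, directly after its window, although the gene's annotation begins further upstream at base 134646677. The transcript Syt1-201, with 85.8% of the reads on Syt1, begins 7 bases inside the end of the Syt1 window, and Syt9-201 took 65.5% of the reads on Syt9. Syt9-205 and Syt9-202, annotated as retained introns, took 16.1% and 17.9% of the reads on Syt9. Between files the shares of these 2 ran from 0 to 44.5% and from 0 to 35.0%, so the split is uncertain. Promoters were listed for 6 of the 10 members.

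The totals counted on genes ran from 22455512 to 28061185 per library. The markers of the 3 regions went with the labels of the dissection. The summed level of 9 forebrain markers such as Emx1 and Tbr1 lay between 307.2 and 434.9 CPM (TMM-scaled counts-per-million) in forebrain, between 189.1 and 299.7 in midbrain and between 12.1 and 17.1 in hindbrain, so the midbrain libraries carried much forebrain signal. The 11 hindbrain markers, which include Hox genes and cerebellar genes, summed to 666.5 to 1134.0 CPM in hindbrain, 126.3 to 349.4 in midbrain and 1.23 to 15.8 in forebrain, where Hoxc4 and Hoxd3 were at 0 in all 6 libraries. The 10 midbrain markers summed to 72.9 to 162.3 CPM in midbrain, 8.57 to 28.1 in forebrain and 30.3 to 56.5 in hindbrain. Neuronal markers differed little (medians of 3904 CPM in forebrain, 4232 in midbrain and 4174 in hindbrain), while oligodendrocyte markers had medians of 15257, 19911 and 35308 CPM. Fmr1 itself overlapped between the genotypes in each region, with 74.1 to 78.8 CPM in Fmr1CRE and 69.2 to 83.4 CPM in wild-type forebrain.

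Both forebrain libraries of replicate 3 went against the midbrain and hindbrain libraries labelled as the same mouse. Over 19 genes that varied between mice alike in midbrain and hindbrain (correlation above 0.95, SD above 0.7 on the log2 scale), the library labelled WT replicate 3 forebrain had a correlation of -0.32 with its own mouse and 0.75 with Fmr1CRE replicate 3, and the library labelled Fmr1CRE replicate 3 forebrain had -0.37 with its own mouse and 0.90 with WT replicate 3. The forebrain libraries of both replicates 1 and of Fmr1CRE replicate 2 were closest to their own mice (0.78 to 0.94), and that of WT replicate 2 was closest to WT replicate 3 (0.61, against 0.26 with its own mouse). None of the synaptotagmin genes was among the 19. The 19 genes were chosen where midbrain and hindbrain went together. An exchange of both these regions between the 2 mice would therefore give the same values as an exchange of forebrain. Genotype comparisons in midbrain and hindbrain thus also rest on the labels of replicate 3. Forebrain fold changes of the members are also given without the 2 forebrain libraries of replicate 3.

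In forebrain against hindbrain, Syt1, Syt5, Syt6, Syt7 and Syt10 were higher in forebrain, and Syt2, Syt3, Syt4, Syt9 and Syt12 were higher in hindbrain. Syt2 showed the widest contrast of the 10, at 7.20-fold higher in hindbrain, followed by Syt5 at 5.70-fold and Syt1 at 4.86-fold higher in forebrain. All 10 members passed the test (edgeR quasi-likelihood test over all genes, adjusted p under 0.05), 5 in each direction, where 26.4% of the 20363 genes tested were higher in forebrain and 25.3% were higher in hindbrain (51.7% in either direction). The median log2 fold change of the 10 was 0.13, against -0.0085 for all genes. With scaling by total counts alone the median of all genes moved to -0.15, and 4349 genes were higher in forebrain and 6819 in hindbrain in place of 5383 and 5147, while the members kept their 5 calls in each direction. The ranges of the 6 mice did not overlap for 7 members, namely Syt1, Syt5, Syt6 and Syt7, higher in forebrain, and Syt2, Syt3 and Syt9, higher in hindbrain, against 27.7% of all genes. Since the summed oligodendrocyte markers also rose from forebrain to hindbrain, as given above, and the part of the makeup of the tissue in these differences was not tested, they are differences between dissected blocks.

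**Figure D1:**
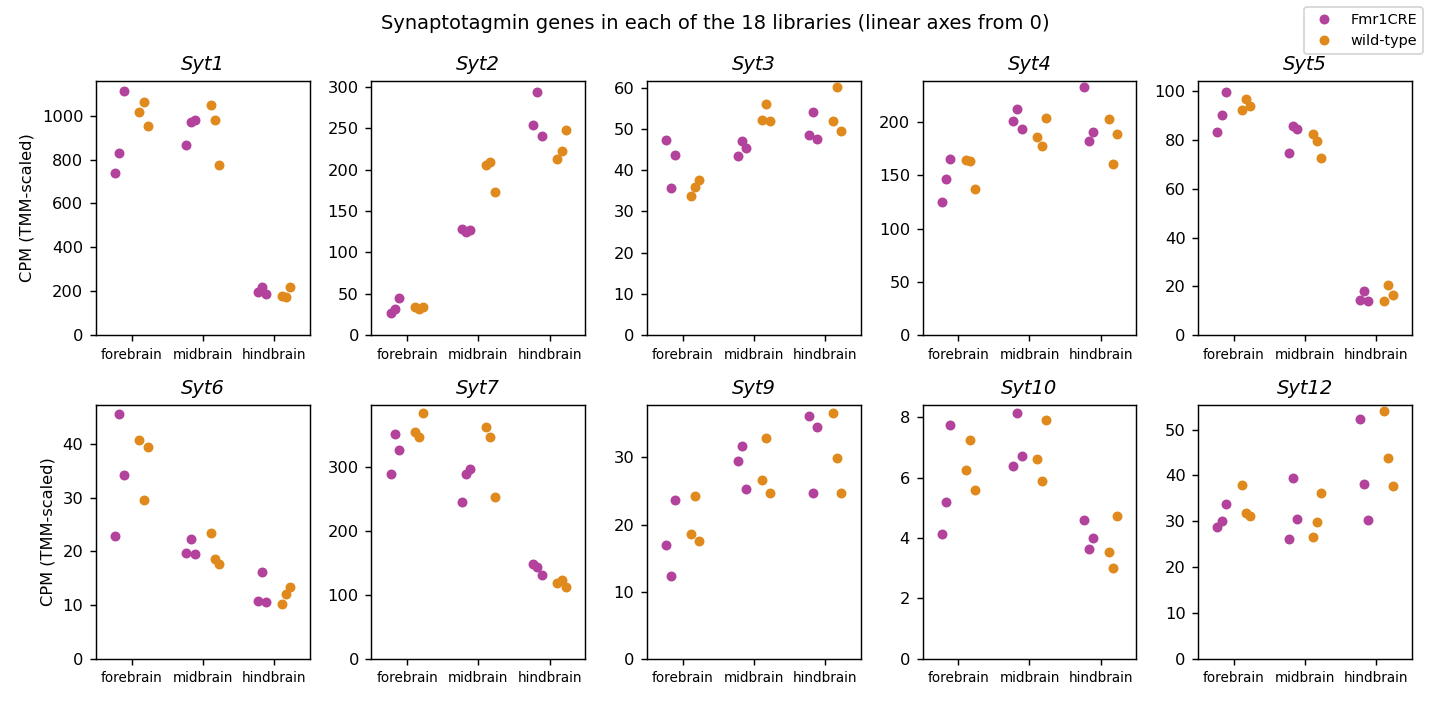
CPM of each of the 10 synaptotagmin genes on linear axes from 0, by region, with 1 point per library, Fmr1CRE in purple and wild-type in orange, and 3 mice per genotype. Syt1 lies between 738.7 and 1111.3 CPM in forebrain and between 172.2 and 220.9 in hindbrain, while Syt2 lies between 27.2 and 45.0 in forebrain and between 213.3 and 293.7 in hindbrain.

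Of the fast sensors, Syt1 (ENSMUSG00000035864, chromosome 10, 108497650 to 109010982, minus strand, GRCm38) had 738.7, 984.6 and 1111.3 CPM in forebrain (lowest, median and highest of 6 mice). In midbrain it had 773.6, 975.1 and 1048.6 CPM, and in hindbrain 172.2, 191.7 and 220.9 CPM. Forebrain and midbrain thus overlapped, and every hindbrain library lay below all of both. The log2 fold change was 2.28 (SE 0.11, edgeR adjusted p = 1.05e-10) for forebrain against hindbrain and 2.26 (SE 0.11, adjusted p = 3.29e-10) for midbrain against hindbrain. Between forebrain and midbrain it was 0.02 (95% confidence interval -0.20 to 0.24, adjusted p = 0.922), with a sign that turned with scaling by total counts alone (-0.04) and without the forebrain libraries of replicate 3 (-0.06). The midbrain libraries also carried 189.1 to 299.7 CPM of forebrain markers. The part of the dissection in the midbrain levels of Syt1, and of Syt5 and Syt7 below, was not tested.

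Syt2 (ENSMUSG00000026452, chromosome 1, 134646677 to 134762593, plus strand) went the other way, with 27.2, 32.9 and 45.0 CPM in forebrain. In midbrain it had 124.2, 150.7 and 209.7 CPM, and in hindbrain 213.3, 244.2 and 293.7 CPM. No 2 regions overlapped, and the order was forebrain, midbrain, hindbrain. The log2 fold change was -2.85 (SE 0.11, edgeR adjusted p = 9.68e-12) for forebrain against hindbrain, -2.21 (SE 0.11, adjusted p = 4.44e-09) for forebrain against midbrain and -0.64 (SE 0.10, adjusted p = 9.05e-05) for midbrain against hindbrain. The last of these was uneven between the genotypes, at -1.09 (edgeR adjusted p = 0.00166) in Fmr1CRE mice alone and -0.23 (adjusted p = 0.110) in wild-type mice alone. A direct test of genotype by region, given below, had an adjusted p of 0.66 for Syt2 with edgeR and 0.0299 with DESeq2. Without the forebrain libraries of replicate 3, forebrain against hindbrain was -2.97. In midbrain, levels of Syt2 stood beside hindbrain markers that ranged from 126.3 to 349.4 CPM between libraries, and the part of the dissection in the level was not tested.

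Syt9 (ENSMUSG00000062542, chromosome 7, 107370728 to 107548656, plus strand) was much lower than Syt1, with 12.4, 18.1 and 24.3 CPM in forebrain. It had 24.7, 28.1 and 32.9 CPM in midbrain and 24.6, 32.2 and 36.6 CPM in hindbrain. The highest forebrain library (24.31 CPM) lay only just below the lowest hindbrain (24.64 CPM) and midbrain (24.66 CPM) libraries, and midbrain and hindbrain overlapped. In the fit Syt9 came to -0.72 (SE 0.16, edgeR adjusted p = 0.00116) for forebrain against hindbrain and -0.59 (SE 0.16, adjusted p = 0.0153) for forebrain against midbrain. The second of these lost its call when Fmr1CRE replicate 1, WT replicate 1 or Fmr1CRE replicate 2 was left out (adjusted p = 0.0665, 0.0595 and 0.0517). For midbrain against hindbrain it was -0.13 (95% confidence interval -0.46 to 0.20, adjusted p = 0.519).

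Syt7 (ENSMUSG00000024743, chromosome 19, 10389090 to 10453180, plus strand), the slower sensor of higher affinity, had 289.7, 349.2 and 383.8 CPM in forebrain. It had 245.7, 293.4 and 362.7 CPM in midbrain and 111.8, 127.1 and 148.7 CPM in hindbrain. As for Syt1, forebrain and midbrain overlapped and hindbrain lay apart below both. The log2 fold change was 1.40 (SE 0.09, edgeR adjusted p = 2.54e-09) for forebrain against hindbrain and 1.21 (SE 0.09, adjusted p = 3e-08) for midbrain against hindbrain, 2.65-fold and 2.31-fold. Forebrain against midbrain gave 0.19 (95% confidence interval 0.0087 to 0.38, adjusted p = 0.135).

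Syt5 (ENSMUSG00000004961, chromosome 7, 4539765 to 4547541, minus strand) followed Syt1 closely in its pattern, with 83.0, 93.2 and 99.8 CPM in forebrain. It had 72.7, 81.1 and 85.7 CPM in midbrain and 13.8, 15.6 and 20.6 CPM in hindbrain. Hindbrain again lay far below both other regions, which overlapped. In log2 fold change this was 2.51 (SE 0.10, edgeR adjusted p = 1.33e-11) for forebrain and 2.30 (SE 0.10, adjusted p = 8.3e-11) for midbrain against hindbrain, and 0.21 (adjusted p = 0.119) for forebrain against midbrain.

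Syt3, Syt6 and Syt10 share cysteines near the N-terminus through which they form disulfide-linked dimers, and they did not share a pattern. Syt6 (ENSMUSG00000027849, chromosome 3, 103575231 to 103645569, plus strand), known from the acrosome reaction of sperm, fell in steps from forebrain (22.9, 36.9 and 45.6 CPM) through midbrain (17.7, 19.6 and 23.4 CPM) to hindbrain (10.1, 11.4 and 16.2 CPM). It was the only member of the 10 that passed the test as higher in forebrain than in midbrain, at 0.81 (SE 0.16, edgeR adjusted p = 0.00198), where forebrain and midbrain still overlapped through Fmr1CRE replicate 1. Forebrain against hindbrain was 1.54 (adjusted p = 7.88e-07) and midbrain against hindbrain 0.73 (adjusted p = 0.00137). Of the reads on Syt6, 54.4% were assigned to Syt6-206, a transcript annotated as subject to nonsense-mediated decay, so the gene's count may not be a count of coding mRNA alone. This share ran from 34.0% to 81.6% between files, and that of the coding transcript Syt6-201 from 0 to 47.4%, so the split is uncertain.

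Syt3 (ENSMUSG00000030731, chromosome 7, 44384102 to 44400187, plus strand), which is known to take part in the endocytosis of AMPA receptors, was lowest in forebrain, at 33.6, 36.7 and 47.4 CPM. It had 43.4, 49.6 and 56.1 CPM in midbrain and 47.5, 50.6 and 60.2 CPM in hindbrain. The difference on the log2 scale was -0.42 (SE 0.08, edgeR adjusted p = 0.000264) for forebrain against hindbrain and -0.34 (SE 0.08, adjusted p = 0.00555) for forebrain against midbrain, against -0.08 (adjusted p = 0.427) for midbrain against hindbrain. As for Syt2, the values were uneven between the genotypes. Forebrain against midbrain was -0.10 (edgeR adjusted p = 0.672) in Fmr1CRE mice alone and -0.58 (adjusted p = 0.00831) in wild-type mice alone, and forebrain against hindbrain was -0.28 (adjusted p = 0.113) and -0.60 (adjusted p = 0.00123). Each of these fits includes a forebrain library of replicate 3 whose label is in doubt. A direct test of genotype by region, given below, had an edgeR adjusted p of 0.66 for Syt3. The forebrain and hindbrain ranges were separated by less than 1 CPM, and forebrain overlapped midbrain. Syt10 (ENSMUSG00000063260, chromosome 15, 89782393 to 89841860, minus strand), which controls the release of IGF-1 in olfactory bulb neurons, was the least abundant, with 91 to 231 counts per library. It had 4.15, 5.92 and 7.75 CPM in forebrain, 5.88, 6.66 and 8.16 CPM in midbrain and 3.00, 3.82 and 4.75 CPM in hindbrain. The midbrain libraries lay above all hindbrain libraries (0.83, SE 0.16, adjusted p = 0.000548), forebrain overlapped hindbrain (0.62, SE 0.16, adjusted p = 0.00427), and forebrain against midbrain was -0.21 (adjusted p = 0.404).

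Syt4 and Syt12 depart from the calcium sensors, since Syt4 has a substitution in the first of its C2 domains that weakens calcium binding and Syt12 lacks calcium-binding residues. Syt4 (ENSMUSG00000024261, chromosome 18, 31437808 to 31447406, minus strand), known from dense core vesicles, had 125.2, 154.7 and 165.8 CPM in forebrain. It had 177.5, 197.5 and 212.5 CPM in midbrain and 160.3, 189.8 and 233.2 CPM in hindbrain. Forebrain lay below all midbrain libraries (-0.38, SE 0.09, edgeR adjusted p = 0.00725) and overlapped the lowest hindbrain library (-0.36, SE 0.09, adjusted p = 0.00307). Midbrain and hindbrain did not pass the test for Syt4 (0.02, 95% confidence interval -0.17 to 0.21, adjusted p = 0.868). Syt12 (ENSMUSG00000049303, chromosome 19, 4445908 to 4477447, minus strand) had 28.8, 31.5 and 38.0 CPM in forebrain, 26.1, 30.1 and 39.3 CPM in midbrain and 30.4, 40.9 and 54.0 CPM in hindbrain, with overlap throughout. Its calls were the least firm of the 10, at -0.40 (SE 0.14, adjusted p = 0.0237) for forebrain and -0.44 (SE 0.14, adjusted p = 0.0159) for midbrain against hindbrain. The former was lost without Fmr1CRE replicate 1, WT replicate 1, Fmr1CRE replicate 2 or WT replicate 2 (adjusted p between 0.0542 and 0.120) and without the forebrain libraries of replicate 3 (-0.41, adjusted p = 0.0551). The latter was lost without Fmr1CRE replicate 1, WT replicate 1 or WT replicate 2 (adjusted p = 0.130, 0.120 and 0.0647).

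In the other region comparisons, 7 of the 10 members passed in midbrain against hindbrain. There 5 were higher in midbrain (Syt1, Syt5, Syt6, Syt7 and Syt10), where 25.1% of all genes were, and 2 were higher in hindbrain (Syt2 and Syt12), where 24.0% were, so 49.1% of all genes passed in either direction. In forebrain against midbrain 5 members passed, with Syt6 higher in forebrain (9.38% of all genes) and Syt2, Syt3, Syt4 and Syt9 higher in midbrain (9.96%), where 19.3% of all genes passed in either direction. With total counts alone 1391 genes were higher in forebrain and 2926 in midbrain, in place of 1911 and 2028. Ranges did not overlap for 6 members in midbrain against hindbrain (26.9% of all genes) and for 3 members, Syt2, Syt4 and Syt9, in forebrain against midbrain (10.5% of all genes).

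Without the 2 forebrain libraries of replicate 3, 9 of the 10 members passed in forebrain against hindbrain, all but Syt12, beside 46.5% of all genes. The log2 fold changes of those not yet given in this way were 2.48 for Syt5, 1.51 for Syt6, 1.38 for Syt7, 0.52 for Syt10, -0.45 for Syt3, -0.37 for Syt4 and -0.81 for Syt9. Syt1 had 2.21 there. In forebrain against midbrain Syt2, Syt3, Syt4, Syt6 and Syt9 passed, as with all libraries, beside 19.1% of all genes, with Syt2 at -2.335, Syt3 at -0.38, Syt4 at -0.40, Syt6 at 0.78 and Syt9 at -0.68. Those that did not pass had 0.18 (Syt5), 0.17 (Syt7), -0.31 (Syt10) and 0.03 (Syt12). In mice of 1 genotype alone, with 3 mice per region, further calls were lost. These were Syt3, Syt10 and Syt12 in Fmr1CRE and Syt4 and Syt12 in wild-type mice for forebrain against hindbrain, Syt6 and Syt12 in Fmr1CRE and Syt2 in wild-type mice for midbrain against hindbrain, and Syt3, Syt4, Syt6 and Syt9 in Fmr1CRE and Syt4 and Syt9 in wild-type mice for forebrain against midbrain.

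**Figure D2:**
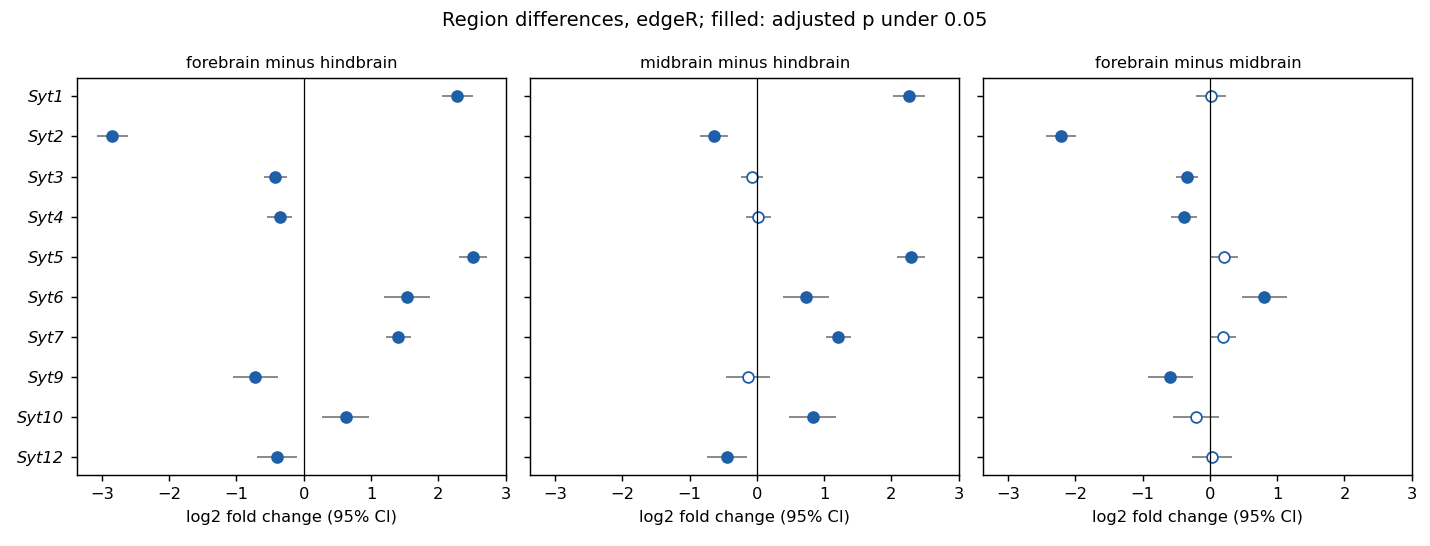
Log2 fold changes of the 10 genes with their 95% confidence intervals in the 3 comparisons of regions (edgeR, 6 mice per region), where filled points have an adjusted p under 0.05. Syt1 and Syt5 lie above 2 in both comparisons with hindbrain, and Syt2 lies at -2.85 and -0.64 in the same comparisons and at -2.21 between forebrain and midbrain.

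Levels of different genes were compared as CPM per kilobase of effective length, the length over which salmon expects reads, averaged over all libraries. In forebrain Syt1 came first at a median of 244.3 CPM per kilobase, apart from all others, followed by Syt4 (52.8), Syt5 (51.2) and Syt7 (50.6), whose ranges overlapped. Then came Syt3 (12.4), Syt6 (8.96), Syt12 (8.17), Syt9 (5.75), Syt2 (4.58) and Syt10 (3.81), where each neighbour after Syt6 overlapped the one before it. In midbrain Syt1 (242.0) was again apart from Syt4 (67.3), and Syt2 (20.99) came next, after Syt5 (44.6) and Syt7 (42.5) and overlapping Syt3 (16.8). In hindbrain Syt4 (64.7) and Syt1 (47.6) led with ranges that just overlapped, and Syt2 (34.0) came next, apart from Syt7 (18.4) below it. Syt1 and Syt2 did not overlap in hindbrain on this scale, but their order turned with the exon union as length. Syt3 (17.2), Syt12 (10.6), Syt9 (10.2), Syt5 (8.55), Syt6 (2.78) and Syt10 (2.46) followed, so Syt5 moved from the third place in forebrain to the eighth in hindbrain.

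As a share of the 10 genes summed per kilobase, Syt1 made up 54.4% ± 2.28 (SD, n = 6) in forebrain, 51.3% ± 2.13 in midbrain and 22.02% ± 1.91 in hindbrain. Syt2 had a share of 1.09% ± 0.12, 4.96% ± 1.13 and 15.5% ± 1.32 in the same order, and that of Syt4 was 11.9% ± 0.60, 14.9% ± 1.79 and 29.8% ± 2.65. The sum of the 10 genes had medians of 445.6, 461.7 and 217.5 CPM per kilobase, with a range of 203.7 to 239.9 in hindbrain that lay below all other libraries (354.6 and more). The larger share of Syt4 in hindbrain therefore went with a smaller sum, as its level per kilobase was 67.3 in midbrain and 64.7 in hindbrain.

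**Figure D3:**
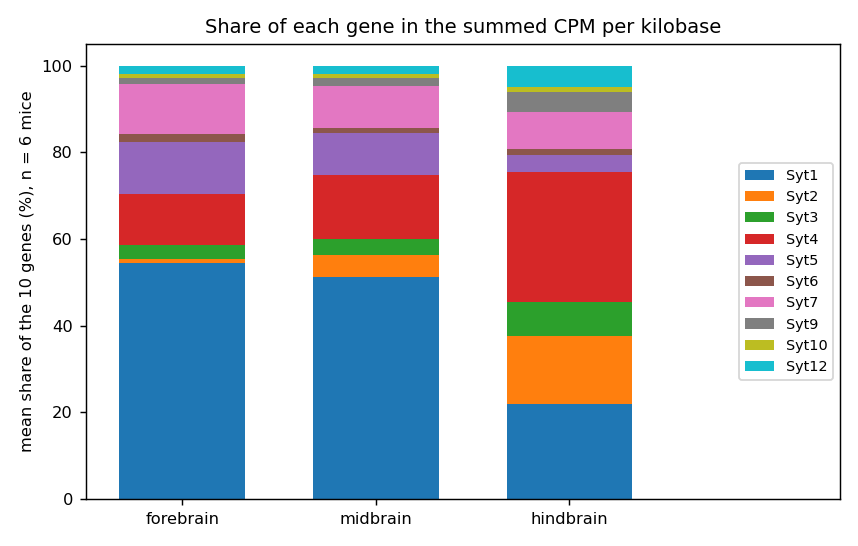
Mean share of each gene in the summed CPM per kilobase of the 10 synaptotagmin genes, in percent, as stacked bars for each region over 6 mice. Syt1 takes 54.4% in forebrain, 51.3% in midbrain and 22.02% in hindbrain, where Syt4 takes 29.8% and Syt2 15.5%.

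The balance of Syt1 to Syt2, as the ratio of their counts per effective length, had 44.0, 49.4 and 60.1 Syt1 per Syt2 in forebrain (lowest, median and highest of 6 mice). In midbrain it was 7.96, 10.6 and 13.9, and in hindbrain 1.34, 1.39 and 1.58. No 2 regions overlapped. Midbrain libraries carried both forebrain and hindbrain markers, as given above, and the part of the dissection in their balance was not tested. On the log2 scale the balance was 5.64 ± 0.16 (SD, n = 6), 3.402 ± 0.37 and 0.51 ± 0.09, and the difference within mice as labelled was 5.14 between forebrain and hindbrain, 2.90 between midbrain and hindbrain and 2.24 between forebrain and midbrain. Each of the 3 had p = 0.031 (adjusted p = 0.031) in a two-sided exact permutation test of sign flips over 6 mice, the smallest value that this test can give, with the same direction in 6 of 6 mice as labelled. The pairing of forebrain libraries with mice is in doubt for both of replicate 3 and unsure for WT replicate 2 (correlation of 0.26 with its own mouse). As no 2 regions overlapped, the direction does not depend on the pairing. The differences do not depend on the length used, but the level does. With the union of annotated exons as length, or with no length, the hindbrain level was -0.45 or -0.33 on the log2 scale, so which of the 2 genes was the more abundant in hindbrain was not settled by these data.

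**Figure D4:**
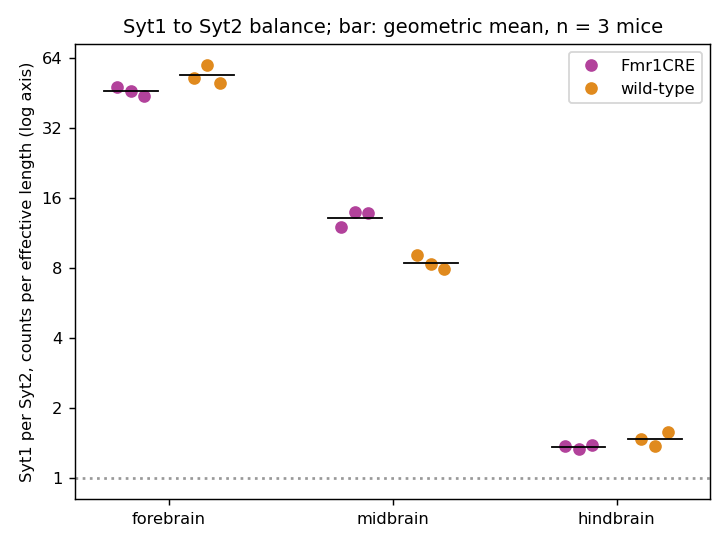
Syt1 per Syt2 as counts per effective length on a log axis, by region, with 1 point per library and a bar at the geometric mean of 3 mice per genotype, where the dotted line marks equal levels. The 6 forebrain libraries lie between 44.0 and 60.1, the midbrain libraries between 7.96 and 13.9 and the hindbrain libraries between 1.34 and 1.58.

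Across the 18 libraries, the members fell into patterns of likeness, given here as a description with no test, since the libraries share mice, regions and their makeup, and the steps between regions set most of each value. Pearson's r of log2 CPM was 0.99 for Syt1 with Syt5, 0.97 for Syt1 with Syt7, 0.82 for Syt2 with Syt3 and -0.85 for Syt2 with Syt6, and -0.64 for Syt1 with Syt2. Of all genes, the 3 most like Syt1 were Cacna2d1 (r = 0.996), Ildr2 (0.995) and Enc1 (0.995). Those most like Syt2 were Sgpp2 (0.991), Slc6a5 (0.987), the glycine transporter of inhibitory nerve endings, and Evx1 (0.983). For Syt5 they were Camkv (0.997), Icam5 (0.995) and Basp1 (0.995), for Syt7 Fbxo41 (0.993), Dlgap4 (0.992) and Camta2 (0.990), and for Syt6 Rasd2 (0.973), Drd2 (0.970), a dopamine receptor, and Cxcl14 (0.969). Likeness was lower for Syt10, with Gabrb2 (0.955), Dgke (0.95) and Lrrn3 (0.948), for Syt9, with Plcb4 (0.927), Lmx1a (0.912) and Calb2 (0.906), and for Syt4, with Fem1c (0.902), Tll1 (0.888) and Tmem132c (0.874). Syt3 had Irx3os (0.891), Capn1 (0.882) and Flt3 (0.881), and Syt12 had Ddah2 (0.852), Hikeshi (0.851) and Gm47438 (0.843).

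The release machinery around the synaptotagmins, a list of 29 genes for SNARE proteins, complexins, Munc13 and RIM proteins, synapsins and vesicle proteins, was compared in the same way. In forebrain against hindbrain 19 were higher in forebrain, 5 were higher in hindbrain and 5 did not pass, beside 26.4% and 25.3% of all genes in the same directions. The median log2 fold change of the 29 was 0.50, against -0.0085 for all genes, and the extremes lay on both sides. Cplx3, a complexin of ribbon synapses and some cortical neurons, had medians of 15.1 CPM in forebrain, 11.004 in midbrain and 0.47 in hindbrain (log2 fold change 4.84, edgeR adjusted p = 5.73e-12). Stx1a, a SNARE of the plasma membrane, had 220.7, 129.8 and 14.3 CPM (3.89, adjusted p = 3.37e-12), and Rims1, a scaffold of the active zone, had 399.4, 227.1 and 66.7 CPM (2.62, adjusted p = 6.12e-11). At the other end stood Vamp1, a SNARE of the vesicle, with medians of 110.7, 346.5 and 674.3 CPM in forebrain, midbrain and hindbrain, at -2.65 (adjusted p = 1.64e-10). Its ordering by region was that of Syt2. Sv2c (-1.20, adjusted p = 0.000428) and Unc13c (-0.80, adjusted p = 2e-05) were also higher in hindbrain. In midbrain against hindbrain 21 of the 29 were higher in midbrain and 4 were higher in hindbrain, beside 25.1% and 24.0% of all genes. In forebrain against midbrain 6 were higher in forebrain and 9 in midbrain, beside 9.38% and 9.96%.

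Of 15 other genes of the wider family (other synaptotagmins, synaptotagmin-like and extended synaptotagmin genes) 14 were tested, as Syt8 did not pass the filter. In forebrain against hindbrain 8 were higher in forebrain, 2 were higher in hindbrain and 4 did not pass, with a median log2 fold change of 0.35, beside the 26.4%, 25.3% and -0.0085 of all genes. Syt16 had medians of 101.7, 71.5 and 17.7 CPM in forebrain, midbrain and hindbrain (2.44, edgeR adjusted p = 1.85e-08), Syt17 had 33.0, 36.1 and 9.92 CPM (1.74, adjusted p = 2.64e-08), and Sytl4, which was low, had 4.40, 2.48 and 0.94 CPM (2.11, adjusted p = 0.000327). Esyt1, a tether between the endoplasmic reticulum and the plasma membrane, was higher in hindbrain, with 8.38, 13.9 and 27.3 CPM (-1.78, adjusted p = 2.67e-08), as was Sytl3 (-2.90, adjusted p = 0.00146). Sytl3 lay at 0 to 0.28 CPM in forebrain, 0 to 0.24 in midbrain and 0.39 to 1.12 in hindbrain. It passed the filter through hindbrain alone, so its call is given as a description only. In midbrain against hindbrain 8 were higher in midbrain and 3 in hindbrain (25.1% and 24.0% of all genes), and in forebrain against midbrain 2 passed in each direction (9.38% and 9.96%).

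Between the genotypes, no synaptotagmin gene passed the test in forebrain, midbrain or hindbrain (edgeR, 3 Fmr1CRE and 3 wild-type mice). The widest separation of the 10 was that of Syt2 in midbrain, which was lower in all 3 Fmr1CRE libraries than in all 3 wild-type libraries. The 10 members passed 0 times in forebrain, midbrain and hindbrain at an adjusted p under 0.05, beside 0.0%, 0.00543% and 0.0% of all genes. At an unadjusted p under 0.05 there were 0 members in forebrain, 2 in midbrain (Syt2 and Syt3) and 1 in hindbrain (Syt7), beside 5.43%, 6.17% and 5.13% of all genes. Without the 2 forebrain libraries of replicate 3, forebrain had 1 member (Syt1) at an unadjusted p under 0.05, beside 13.6% of all genes, and 0 members and 0.0% of all genes at an edgeR adjusted p under 0.05. DESeq2 called 0, 1 and 0 members in the same regions, beside 0.168%, 0.337% and 0.314% of all genes. The lists of release genes and of other family genes also had 0 calls by edgeR in each region.

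In midbrain Syt2 had 128.2, 124.2 and 126.9 CPM in Fmr1CRE replicates 1, 2 and 3 and 205.0, 209.7 and 173.2 CPM in wild-type replicates 1, 2 and 3. The mutant libraries were close to each other and all lay below the lowest wild-type library, which was also the case, in one direction or the other, for 11.3% of all genes. With the 2 values of replicate 3 exchanged, the groups would overlap. The log2 fold change was -0.63 (SE 0.09, 95% confidence interval -0.85 to -0.42) with an unadjusted p of 0.00017 and an edgeR adjusted p of 0.284. Over the alternatives the adjusted p ranged from 8.37e-06, with DESeq2, to 0.901, with the replicate number as a block, so the call rests on the choice of tool. Leaving out 1 library at a time gave -0.71 to -0.58.

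Of the marker lists, those of hypothalamus and microglia also separated the genotypes in the same midbrain libraries. The forebrain, midbrain, hindbrain, neuronal, oligodendrocyte, astrocyte, endothelial, choroid plexus and immediate early lists overlapped. Of all single genes, 11.3% did not overlap between the genotypes in midbrain. The 12 hypothalamic markers, none of them at 0 in all libraries of a group, summed to 275.5, 245.8 and 211.5 CPM in Fmr1CRE and to 179.9, 153.5 and 153.4 CPM in wild-type midbrain, with no overlap. In forebrain the same list summed to 155.6 to 281.6 CPM, so its sum was not particular to midbrain. The 8 microglial markers summed to 330.5, 364.9 and 346.5 CPM against 305.3, 317.0 and 293.1 CPM, also with no overlap. In a sum of CPM the most abundant genes weigh most, and single genes of these lists were not compared. The 11 hindbrain markers, of which none was at 0 in all libraries of either group, summed to 126.3, 313.0 and 174.1 CPM in Fmr1CRE and to 199.8, 349.4 and 336.0 CPM in wild-type midbrain, overlapping but with a lower median in Fmr1CRE. The level of Syt2 in hindbrain was higher than in midbrain, as given above, and the part of these markers in the genotype difference of Syt2 was not tested.

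In the other regions the genotypes overlapped for Syt2. Syt2 in hindbrain had 253.5, 293.7 and 241.2 CPM in Fmr1CRE and 213.3, 222.1 and 247.3 CPM in wild-type mice, which overlapped (0.20, SE 0.11, edgeR adjusted p = 0.875). Syt2 in forebrain had 27.2, 32.1 and 45.0 CPM against 34.4, 31.5 and 33.7 CPM, where the highest value was that of the library labelled Fmr1CRE replicate 3 (0.09, SE 0.17, adjusted p = 0.913), and the log2 fold change was -0.10 without both libraries of replicate 3. The test of the difference between regions, fitted as a genotype by region interaction in the 18 libraries, gave Syt2 an unadjusted p of 0.00166 and an edgeR adjusted p of 0.660 (0.0299 with DESeq2), Syt3 an unadjusted p of 0.0191 and Syt7 one of 0.0311. The edgeR adjusted p was 0.66 for Syt3 and 0.66 for Syt7. The test called 0 of the 10 members by edgeR and 1 by DESeq2, while 3 members had an unadjusted p under 0.05, beside 7.54% of all genes (0.0% at an edgeR adjusted p under 0.05 and 0.25% with DESeq2). Without both forebrain libraries of replicate 3, the unadjusted p was 0.000278 for Syt2 (adjusted p = 0.139), 0.0462 for Syt3 and 0.0520 for Syt7. The test treats 3 regions of 1 mouse as if they came from different animals.

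Syt3 in midbrain had 43.4, 47.2 and 45.4 CPM in Fmr1CRE and 52.2, 56.1 and 52.0 CPM in wild-type replicates 1, 2 and 3. The groups did not overlap, and the log2 fold change was -0.24 (95% confidence interval -0.43 to -0.04, unadjusted p = 0.0234, edgeR adjusted p = 0.803). Syt7 in hindbrain had 148.7, 143.6 and 131.1 CPM in Fmr1CRE and 118.8, 123.1 and 111.8 CPM in wild-type mice. Here the mutant libraries lay above all wild-type libraries, as in one direction or the other did 10.8% of all genes, and the log2 fold change was 0.25 (95% confidence interval 0.02 to 0.48, unadjusted p = 0.0386, edgeR adjusted p = 0.875). In forebrain all 10 members overlapped between the genotypes, beside 10.2% of all genes without overlap. The log2 fold changes there ran from -0.16 for Syt9 to 0.28 for Syt3, with an edgeR adjusted p of 0.806 or more. They moved widely without the libraries of replicate 3, which left 2 mice per genotype. Then Syt9 was at -0.49 (unadjusted p = 0.0870), Syt10 at -0.48 (unadjusted p = 0.0916, against -0.14 with all libraries), Syt1 at -0.355, Syt4 at -0.22 and Syt12 at -0.19. Syt7 was at -0.08, Syt5 at -0.07, Syt6 at 0.0059 and Syt3 at 0.31, and the lowest edgeR adjusted p of the 10 was that of Syt1 (0.324).

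**Figure D5:**
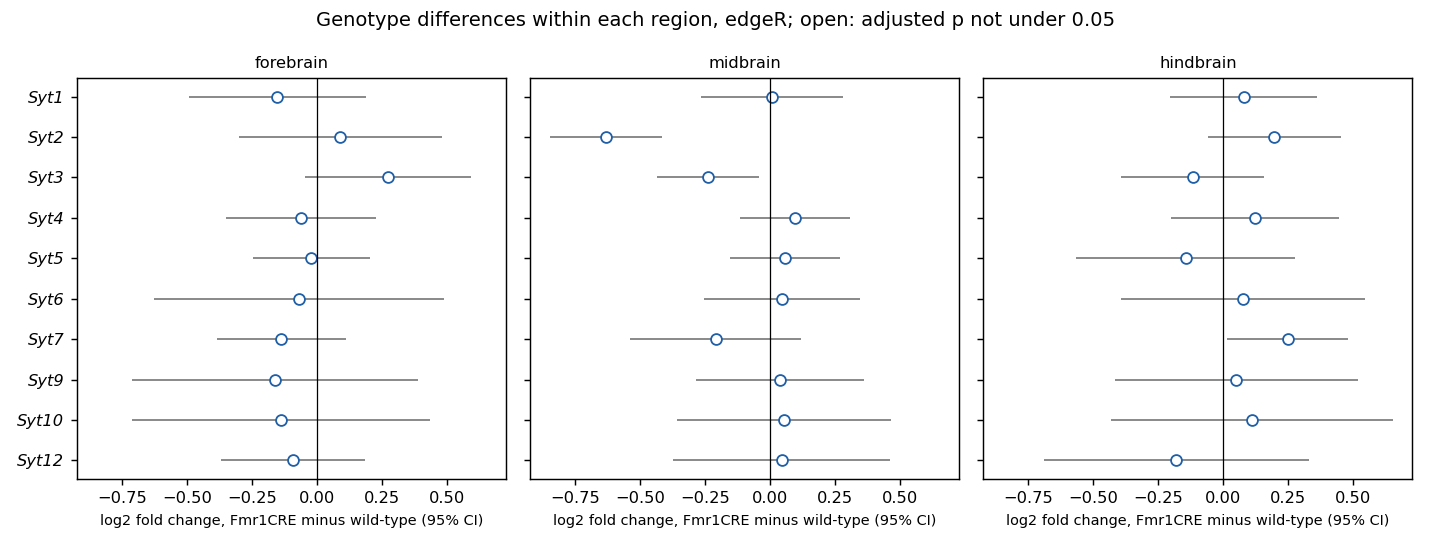
Log2 fold changes of Fmr1CRE against wild-type mice with their 95% confidence intervals for the 10 genes within each region (edgeR, 3 mice per genotype), all drawn as open points because no adjusted p is under 0.05. Syt2 in midbrain lies at -0.63, with an interval from -0.85 to -0.42, apart from the other points of that panel. The forebrain panel includes the 2 libraries of replicate 3 whose labels are in doubt.

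Syt1 and Syt4 make up much of the family's total. Syt1 had a log2 fold change between the genotypes of -0.15 in forebrain (95% confidence interval -0.49 to 0.19, all libraries included), 0.0092 in midbrain (-0.26 to 0.28) and 0.08 in hindbrain (-0.20 to 0.36). The forebrain value of Syt1 ran from -0.32 to -0.05 with 1 library left out and was -0.355 (edgeR unadjusted p = 0.0267, adjusted p = 0.324) without both libraries of replicate 3, so the interval is no bound in forebrain. Syt4 had -0.06 (-0.35 to 0.23), 0.10 (-0.11 to 0.31) and 0.12 (-0.20 to 0.45) in the same order. With 1 value per mouse, from its 3 regions added together, no member passed by edgeR (0 members at an unadjusted p under 0.05, 0 with DESeq2), beside 0.00451% of all genes, and the log2 fold changes lay between -0.09 for Syt2 and 0.07 for Syt4, with adjusted p of 0.998 or more, beside 3.7% of all genes at an unadjusted p under 0.05. Without both mice of replicate 3 they lay between -0.16 for Syt1 and 0.09 for Syt4.

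The balance of Syt1 to Syt2 in midbrain was 12.1, 13.9 and 13.8 in Fmr1CRE and 9.12, 8.33 and 7.96 in wild-type replicates 1, 2 and 3. The groups did not overlap, with a difference of 0.64 on the log2 scale (adjusted p = 0.15 over 3 regions, exact permutation p = 0.1, the smallest that 3 against 3 mice allow). In forebrain it was 48.4, 46.1 and 44.0 against 52.6, 60.1 and 50.4, a difference of -0.23 (exact permutation p = 0.1) that was -0.25 without both mice of replicate 3, and in hindbrain 1.37, 1.34 and 1.39 against 1.47, 1.38 and 1.58, a difference of -0.11 (exact permutation p = 0.2). The groups overlapped in hindbrain. In forebrain they did not overlap as labelled. However, 44.0 and 50.4 belong to the 2 libraries whose labels are in doubt, and with these exchanged the groups would overlap.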

How the data were processed

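The mRNA of 3 regions was sequenced at P25 in 6 mice of 1 litter (18 libraries, single-end reads of poly(A) RNA, run in pools whose members are not named). The authors aligned and quantified reads with the bcbio_nextgen pipeline and salmon (version 0.14.0 and the build mm10 in the submitters' processing notes). They deposited counts per gene, which are salmon's estimates rounded to whole numbers and not normalized, and expected counts per transcript. A table of DESeq2-transformed values was not used here. As only 2 of the 18 transcript files carry the name of the record they are attached to, expected counts were used over all files together, for effective lengths and transcript shares, which include salmon's own corrections. Of the per-sample columns, 0 were left without a sample.

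Symbols and positions came from GENCODE M21 (GRCm38), and 37 identifiers without a symbol held 0.0151% of the counts. The members, the lists and the likeness rule (all 10 members, the 3 genes with the highest r to each, and up to 3 genes per direction with the largest change among those called in forebrain against hindbrain in each of the 2 other lists) were chosen with earlier results of these data known. Regions were compared with edgeR 4.0.16 (R 4.3.3, TMM, filterByExpr, quasi-likelihood test, Benjamini-Hochberg over all genes tested, threshold 0.05) over 18 libraries with 1 mean per region and genotype, averaged over genotypes. Genotypes were compared within a region over 6 libraries, over counts summed per mouse, and as an interaction. Scripts were tested on simulated data. A marker gene each of forebrain and hindbrain was left out of its list and is not reported here. Log2 CPM used a prior count of 2. Replicates differed by more than sampling noise (chi-square per gene of 12.2 or more), and p-values measure the spread between littermates. The regions of a mouse come from 1 animal, with deviations from the group means that correlated between -0.17 and 0.18, so a fit with the mouse as a block was run and changed no member's call between regions. Alternatives were DESeq2 1.42.0, its size factors, total counts, other filters, the block, each genotype alone, each mouse left out and the doubted libraries left out.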

Additional observations from a re-analysis of the deposited data

How the results depend on the processing

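The members had 91 to 26353 counts per library, the fewest for Syt10, and the shares of counting error and of the spread between mice were not told apart. No member was called between the genotypes under any edgeR setting, and DESeq2 called Syt2 alone (1 member) in midbrain and in the interaction. The genes called over the whole table moved more. DESeq2 called 31 forebrain, 62 midbrain and 60 hindbrain genes, 29 over the summed regions and 51 in the interaction, against 0, 1, 0, 1 and 0 with edgeR. With no filter on low counts 11 were called in midbrain, 11 in hindbrain, 4 over the summed regions and 7 in the interaction. With all 18 libraries in one fit, 1, 0 and 1 were called in forebrain, midbrain and hindbrain, and with at least 10 counts in every library 0 in midbrain. Without both mice of number 3, or with the replicate number as a block, 0 were called over the summed regions, and without both forebrain libraries of number 3 the interaction called 4. Replicate numbers did not pair the genotypes (correlations of deviations between -0.12 and 0.07), and the replicate block by number gave Syt2 in midbrain -0.63 with an adjusted p of 0.901. Leaving out 1 library at a time, 0 to 4 genes were called in midbrain, 0 to 5 in hindbrain, 0 in forebrain, 0 over the summed regions and 0 to 4 in the interaction, with 0 members throughout.

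Between regions, fits on 1 genotype alone had fewer libraries. Fmr1CRE mice alone gave 6178 genes for forebrain against hindbrain, 4847 for midbrain against hindbrain and 527 for forebrain against midbrain, the last with 1 member, and wild-type mice alone gave 1729 genes and 3 members for forebrain against midbrain. With 1 mouse left out, 9 to 10 members and 9077 to 9970 genes were called for forebrain against hindbrain, 6 to 7 and 7841 to 9693 for midbrain against hindbrain, and 4 to 5 and 2258 to 4001 for forebrain against midbrain. Signs turned for differences that were not called, and the cause was not tested. Syt4 in midbrain against hindbrain was -0.056 with total counts alone, -0.027 with at least 10 counts in every library and -0.033 in Fmr1CRE mice alone. Syt1 in forebrain against midbrain was -0.037 with total counts alone, -0.0020 with no filter, -0.070 in Fmr1CRE mice alone and -0.057 without both forebrain libraries of number 3, and Syt12 was -0.024 with total counts alone and -0.045 in Fmr1CRE mice alone. Between the genotypes in forebrain, Syt5 was 0.0071 with total counts alone, and without both libraries of number 3 Syt2 was -0.10 and Syt6 was 0.0059. Over the summed regions, Syt6 was -0.0062 with no filter and -0.015 with the replicate block, Syt9 was -0.0050 with no filter, and without both mice of number 3 Syt5 was -0.022 and Syt9 was -0.13.

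With 1 library or mouse left out at a time, these values, none of them called, passed through 0. In midbrain against hindbrain these were Syt4 from -0.019 to 0.085. In forebrain against midbrain these were Syt1 from -0.061 to 0.063 and Syt12 from -0.060 to 0.14. Between the genotypes in forebrain these were Syt2 from -0.12 to 0.22, Syt4 from -0.14 to 0.018, Syt5 from -0.073 to 0.020, Syt6 from -0.33 to 0.14, Syt9 from -0.40 to 0.039, Syt10 from -0.40 to 0.029 and Syt12 from -0.14 to 0.0068. Between the genotypes in midbrain these were Syt1 from -0.11 to 0.089, Syt6 from -0.029 to 0.17, Syt9 from -0.043 to 0.17, Syt10 from -0.058 to 0.18 and Syt12 from -0.13 to 0.18. Between the genotypes in hindbrain these were Syt5 from -0.26 to 0.019, Syt6 from -0.14 to 0.18, Syt9 from -0.081 to 0.22 and Syt10 from -0.025 to 0.31. Between the genotypes over the summed regions these were Syt1 from -0.13 to 0.053, Syt3 from -0.084 to 0.00032, Syt5 from -0.029 to 0.081, Syt6 from -0.18 to 0.14, Syt9 from -0.10 to 0.084 and Syt10 from -0.050 to 0.10.

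With forebrain, midbrain and hindbrain in this order, the log2 balance of Syt1 to Syt2 was 4.68, 2.44 and -0.45 with the exon union as length, and 4.81, 2.57 and -0.33 with no length. With 1 mouse left out it lay between 5.59 and 5.68, 3.32 and 3.48, and 0.48 and 0.52 in the 3 regions, and the differences between 5.08 and 5.17 (forebrain and hindbrain), 2.80 and 3.01 (midbrain and hindbrain) and 2.12 and 2.36 (forebrain and midbrain), where the smallest exact p that 5 mice allow is 0.0625. Without both mice of number 3 the differences were 5.21, 2.93 and 2.28, with 0.125 as the smallest exact p. With the exon union as length, Syt1 took 41.4%, 38.2% and 14.2% of the family in forebrain, midbrain and hindbrain, Syt2 1.62%, 7.17% and 19.4%, and Syt4 14.1% in forebrain and 17.3% in midbrain.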
